A study of Sus scrofa with 12 samples.

Results

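Pig (Sus scrofa) oocytes freed of their cumulus cells were examined at 12 h of maturation in a chemically defined medium, set against the average of the times on either side, to find transcripts that were high or low for a short while. The comparison uses 9 of the 12 libraries of the series: 3 of the group OO-12h (replicates 1, 3 and 5), 3 of OO-0h (replicates 2, 3 and 4) and 3 of OO-28h (replicates 2, 3 and 4). All are oocytes, and the labels give no treatment that differs between them other than time. The 3 libraries of 44 h entered the model only to estimate the spread, and their levels are given as a description of what followed. The labels name no strain, donor age, number of oocytes or number of animals per library, so p-values measure the spread between libraries, which may be technical.

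A fully grown oocyte waits in prophase of meiosis, where cAMP and protein kinase A keep the cell cycle kinase inactive. When it is released, the nuclear envelope breaks down, the chromosomes pass through metaphase of the first division, and the cell halts again at metaphase of the second division until fertilisation. Transcription is known to be low in a grown oocyte, and much of the control lies in stored messengers that are translated or degraded in turn; pyruvate is its main known fuel.

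Levels are given as CPM, the counts of a gene divided by the scaled total of its library, and are thus shares. Library totals ranged from 21877235 to 26015373 gene counts, and 12977 of 28965 genes passed a filter on low counts and were tested. The summed level of 14 oocyte markers lay between 13274 and 14527 CPM at 12 h, against between 14343 and 16722 CPM at 0 h and between 12107 and 12426 CPM at 28 h, and none of the 14 was at 0 in any library. The 33 markers of cumulus and granulosa cells in the table summed to between 459 and 480 CPM at 12 h, with ranges of 445 to 480 at 0 h and 468 to 478 at 28 h. The FSH receptor gene FSHR of granulosa cells and the theca gene CYP17A1 had 0 counts in all libraries. The granulosa markers AMH and GREM1 were present throughout, at means of 220 and 39.0 CPM at 12 h. Other follicle cell markers were near 0 at 12 h: CYP19A1, LHCGR, CYP11A1, PTX3, TNFAIP6, FOXL2 and INHA averaged 0.0140 to 0.214 CPM. The endothelial marker PECAM1 averaged 26.6 CPM at 12 h, whereas the blood markers PTPRC and HBB averaged 0.705 and 0 CPM. The source of the AMH, GREM1 and PECAM1 reads was not tested. The 18 theca and stroma markers summed to between 299 and 358 CPM at 12 h. Their ranges were 265 to 324 at 0 h and 268 to 325 at 28 h. For 19 markers of endothelium and blood the ranges were 495 to 519 CPM at 12 h, 500 to 545 at 0 h and 484 to 511 at 28 h. As no added standard is named, fewer oocytes and less RNA per oocyte cannot be told apart. Replicate 5 of 12 h stood apart from the other two 12 h libraries on the second principal component, at -27.2 against -2.96 and -2.44, and 1.35% of its counts were mitochondrially encoded, against 0.758% and 0.654% in replicates 1 and 3.

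The 12 h level of 15 genes differed from the average of 0 and 28 h, 12 of them higher and 3 lower. The contrast is the mean log2 level at 12 h minus the mean of the log2 levels at 0 and 28 h, tested by the quasi-likelihood method of edgeR, with p-values adjusted over all genes after Benjamini and Hochberg and a threshold of 0.05. The calls were 0.116% of the genes tested, 0.0925% for higher and 0.0231% for lower genes, and 815 genes (6.28%) had an unadjusted p under 0.05. A gene that rises once by 12 h and then stays up can also be called, since its 12 h level lies above that average. Each 12 h mean was therefore tested against 0 h and against 28 h as well, a pair of comparisons that share the 12 h libraries. Called higher than both neighbours were TP53INP2, PDK4 and AKAP12 (0.0231% of genes), and called lower than both were CALD1 and IGF1 (0.0154%). In those separate tests, 27 genes (0.208%) differed between 12 and 0 h and 34 (0.262%) between 12 and 28 h. Of the 12 higher genes, 7 had a 12 h mean above both neighbours and 5 had a mean between them. None of the 15 exceeded 100 CPM in any group mean, and 8 were below 10 CPM at 12 h.

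**Figure D1:**
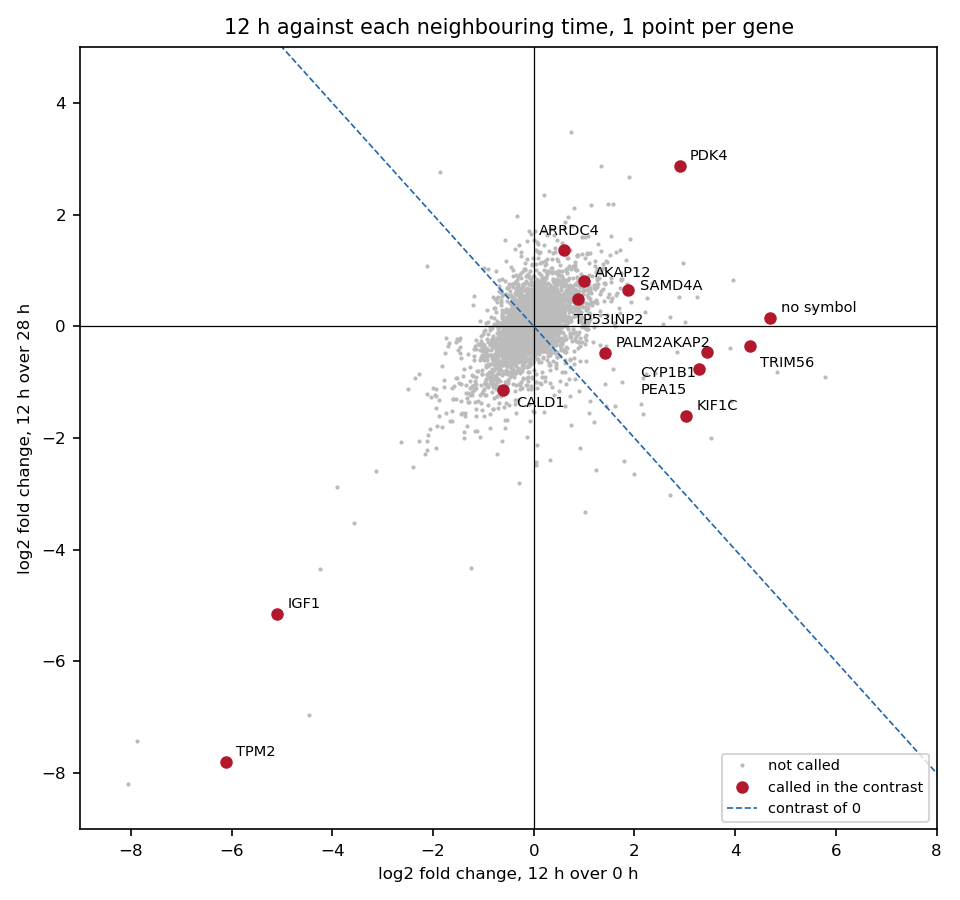
Log2 fold change of 12 h over 0 h (horizontal axis) against that of 12 h over 28 h (vertical axis), 1 point per gene, with 14 called genes in red and a dashed line where the contrast is 0. PDK4, AKAP12, TP53INP2, ARRDC4 and SAMD4A lie above 0 on both axes, KIF1C and PALM2AKAP2 lie to the right and below 0 on the vertical axis, and the fitted values of TPM2 and IGF1 depend on the prior count because these genes had 0 or 1 count in the 12 h libraries.

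PDK4 had the largest brief rise among the genes that passed against both neighbours. Its product phosphorylates and switches off the pyruvate dehydrogenase complex, which lets pyruvate carbon enter the citrate cycle. PDK4 (ENSSSCG00000015334, Sscrofa11.1 chromosome 9, 75246002 to 75260134) stood at 9.90, 6.70 and 15.4 CPM in the 12 h libraries, against 0.787, 2.14 and 1.33 CPM at 0 h and 1.94, 1.22 and 1.24 CPM at 28 h. Every 12 h library lay above every library of the other times, and the spread at 12 h was wider than at its neighbours, with replicate 5 highest. The level was 7.45-fold that of 0 h (adjusted p 0.000944) and 7.29-fold that of 28 h (adjusted p 0.00199) in edgeR, and the log2 contrast was 2.88 (SE 0.31, adjusted p 0.000267). The difference between 28 and 0 h was 0.03 on the log2 scale (95% interval -0.87 to 0.94), and at 44 h the mean was 1.16 ± 0.701 CPM (SD, n = 3). PDK4 was called against both neighbours in each of the 12 fits that left out 1 library.

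The other pyruvate dehydrogenase kinases did not pass. PDK1 averaged 17.2 ± 0.159 CPM at 12 h, against 17.6 ± 1.245 CPM at 0 h and 17.8 ± 1.68 CPM at 28 h, and its log2 contrast was -0.04 (95% interval -0.24 to 0.16). PDK2 and PDK3 had log2 contrasts of 0.02 (-0.15 to 0.18) and 0.05 (-0.13 to 0.23). Of 17 tested genes of the pyruvate dehydrogenase complex, its kinases, phosphatases and carriers, 1 was called higher and 0 lower. The shares over all genes tested were 0.0925% and 0.0231%. The list's median log2 contrast was 0.02, against -0.00 over all genes tested. PDHA1, the catalytic subunit the kinases act on, stood at 107.9 ± 8.91 CPM at 12 h, against 96.5 ± 5.17 CPM at 0 h and 98.4 ± 1.80 CPM at 28 h, and did not pass (edgeR adjusted p 0.787).

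TP53INP2 carried the smallest adjusted p of the contrast. It encodes a protein that moves from the nucleus to autophagosomes and binds ATG8 family proteins there. TP53INP2 (ENSSSCG00000022099, chromosome 17, 38104200 to 38113165) stood at 39.5, 42.2 and 45.6 CPM at 12 h, against 22.1, 23.6 and 23.3 CPM at 0 h and 28.9, 31.1 and 30.6 CPM at 28 h. The 3 times did not overlap, with 12 h on top, 28 h in the middle and 0 h at the bottom, and replicates lay close together within each. The level was 1.85-fold that of 0 h (edgeR adjusted p 3.61e-06) and 1.40-fold that of 28 h (adjusted p 0.0178), with a log2 contrast of 0.69 (SE 0.08, adjusted p 0.000117). The return was partial: 28 h remained 0.39 above 0 h on the log2 scale (95% interval 0.20 to 0.59, edgeR adjusted p 0.0212), and 44 h averaged 30.0 ± 0.818 CPM. Dropping 12 h replicate 3, 12 h replicate 5 or any single 28 h library ended the call against 28 h (edgeR adjusted p 0.0506 to 0.18), while the contrast itself was called in each of the 12 fits.

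Among the 35 tested autophagy genes, TP53INP2 was the 1 called (0.116% over all genes tested), and the list's median log2 contrast was -0.01. Its paralogue TP53INP1 stood at 246 ± 21.9 CPM at 12 h, against 238 ± 22.8 CPM at 0 h and 240.2 ± 19.3 CPM at 28 h, a log2 contrast of 0.04 (95% interval -0.10 to 0.18). GABARAPL2, an ATG8 family member, stood at 16.9 ± 1.42 CPM at 12 h, against 22.5 ± 1.65 CPM at 0 h and 19.4 ± 3.67 CPM at 28 h, and did not pass (edgeR adjusted p 0.787).

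AKAP12 encodes gravin, a membrane scaffold that holds protein kinase A and protein kinase C. AKAP12 (ENSSSCG00000031733, chromosome 1, 14908115 to 15017001) stood at 39.1, 25.2 and 35.3 CPM at 12 h, against 16.5, 18.4 and 14.7 CPM at 0 h and 19.1, 16.9 and 20.9 CPM at 28 h. The 12 h libraries lay above all 6 others, with replicate 3 nearest to them. The level was 2.01-fold that of 0 h (edgeR adjusted p 0.000539) and 1.75-fold that of 28 h (adjusted p 0.0138), and the log2 contrast was 0.91 (SE 0.12, adjusted p 0.000519). At 28 h it was back near its start, at 0.20 above 0 h on the log2 scale (95% interval -0.11 to 0.50). Its call against 28 h ended, at an edgeR adjusted p of 0.0617 to 0.101, when replicate 1 or 5 of 12 h, or 2 or 3 of 28 h, was left out.

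Of 45 tested genes of cAMP synthesis, cAMP breakdown and kinase A anchoring, AKAP12 and PALM2AKAP2 were called higher (0.0925% over all genes tested) and 0 were called lower, with a median log2 contrast of 0.01. The list was chosen with earlier results of these data known, so its count beside the share cannot show enrichment, which was not tested. The other kinase A anchors did not pass. AKAP1, the anchor of the outer mitochondrial membrane, had a log2 contrast of -0.06 (95% interval -0.18 to 0.06), and AKAP9, a centrosomal and Golgi anchor, one of 0.24 (0.02 to 0.47, edgeR adjusted p 0.787). The kinase's catalytic subunit PRKACA stood at 21.5 ± 0.943 CPM at 12 h, against 23.1 ± 0.128 CPM at 0 h and 26.1 ± 1.48 CPM at 28 h, and PDE3A, the phosphodiesterase that lowers cAMP in oocytes, had a log2 contrast of 0.05 (95% interval -0.10 to 0.19).

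ARRDC4 and SAMD4A also had every 12 h library above all 6 libraries of 0 and 28 h (0.94% over all genes tested), but each passed against a single neighbour. ARRDC4 is an alpha-arrestin, an adaptor that brings ubiquitin ligases to membrane proteins and, like its relative TXNIP, is known to limit glucose uptake. ARRDC4 (ENSSSCG00000002252, chromosome 7, 81656763 to 81669494) stood at 48.0, 42.2 and 46.7 CPM at 12 h, against 35.9, 34.1 and 20.5 CPM at 0 h and 16.2, 21.05 and 15.7 CPM at 28 h. Replicate 4 of 0 h lay well below the other two of that time and within the range of 28 h. The 12 h level was 2.58-fold that of 28 h (edgeR adjusted p 0.000171) and 1.51-fold that of 0 h (adjusted p 0.191), and the log2 contrast was 0.98 (SE 0.13, adjusted p 0.00125). ARRDC4 did not return to its start: 28 h was lower than 0 h (log2 -0.77, edgeR adjusted p 0.0119), and 44 h averaged 10.6 ± 0.750 CPM. DESeq2 also called the difference between 12 and 0 h.

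The remaining alpha-arrestins differed by less than their error. ARRDC2 stood at 96.6 ± 6.37 CPM at 12 h, against 97.3 ± 7.49 CPM at 0 h and 94.2 ± 4.46 CPM at 28 h, a log2 contrast of 0.01 (95% interval -0.13 to 0.15). ARRDC3 had a log2 contrast of -0.08 (-0.34 to 0.17). TXNIP was scarce, at 0.969, 1.17 and 0.897 CPM at 12 h, against 0.663, 1.52 and 1.94 CPM at 0 h and 1.08, 1.46 and 0.787 CPM at 28 h, and its interval of -1.16 to 0.58 leaves room for a change of over 1 log2 unit downwards. Of 7 tested alpha-arrestins and Mondo transcription factors, ARRDC4 was the 1 called (0.116% over all genes tested).

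SAMD4A encodes an RNA-binding protein whose fly homologue, Smaug, represses and clears maternal messengers. SAMD4A (ENSSSCG00000023408, chromosome 1, 183915339 to 184140122) stood at 11.03, 7.13 and 9.70 CPM at 12 h, against 2.53, 2.99 and 2.10 CPM at 0 h and 6.30, 6.61 and 4.85 CPM at 28 h. The groups did not overlap, though replicate 3 of 12 h lay close to the highest 28 h library. The level was 3.65-fold that of 0 h (edgeR adjusted p 3.61e-05) and 1.57-fold that of 28 h (adjusted p 0.41), with a log2 contrast of 1.26 (SE 0.18, adjusted p 0.00125). It went on to 1.36 ± 0.313 CPM at 44 h.

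**Figure D2:**
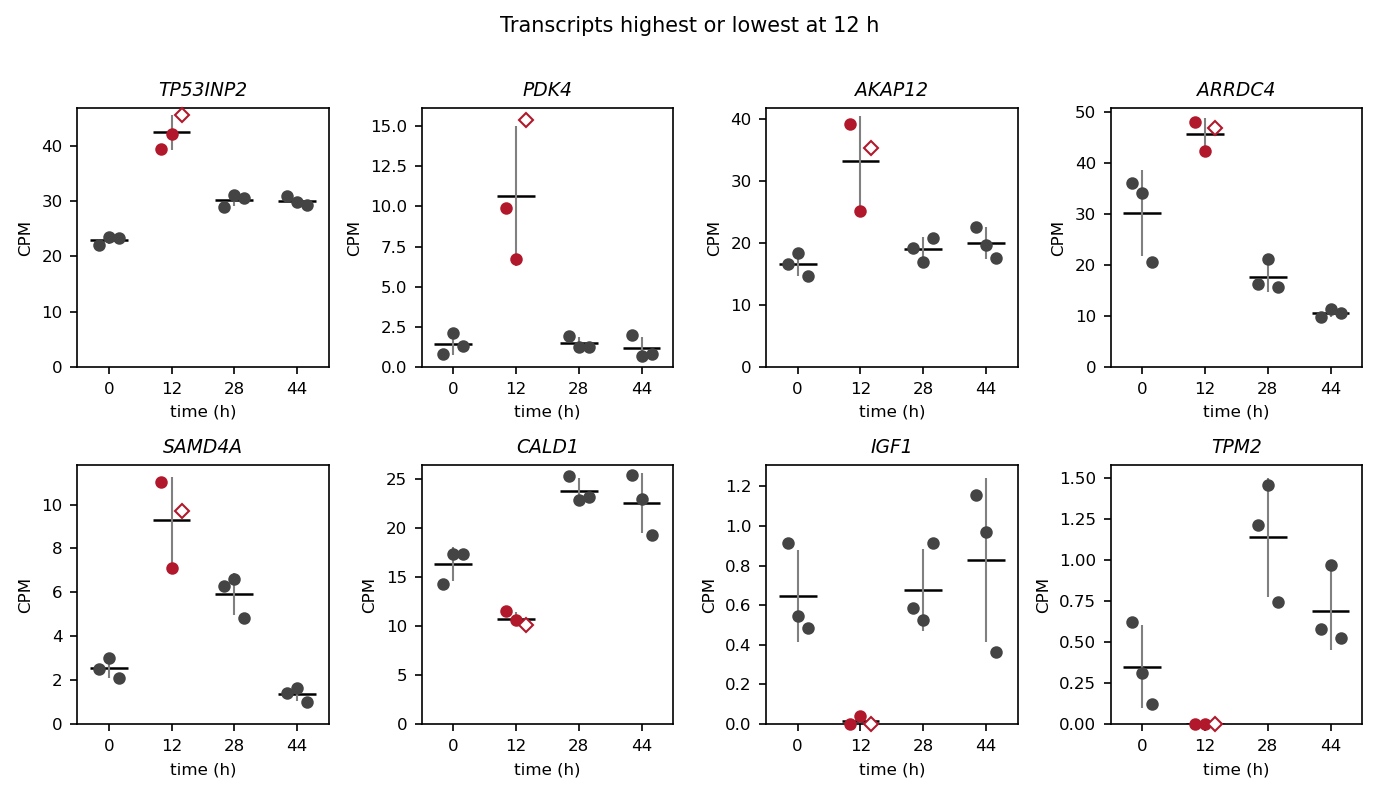
CPM of 8 genes in each of the 12 libraries by time (h), with 12 h in red (replicate 5 as an open diamond), other times in grey, the mean as a bar and the SD as a vertical line. TP53INP2, PDK4, AKAP12, ARRDC4 and SAMD4A have all 3 libraries of 12 h above those of 0 and 28 h, and CALD1, IGF1 and TPM2 have them below.

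The 3 lower genes were CALD1, TPM2 and IGF1. The products of CALD1 and TPM2 act on actin filaments, and a joint change was not tested. CALD1 encodes caldesmon, which binds actin, tropomyosin and myosin and restrains contraction. CALD1 (ENSSSCG00000016535, chromosome 18, 14267955 to 14539017) stood at 11.5, 10.5 and 10.1 CPM at 12 h, against 14.3, 17.3 and 17.3 CPM at 0 h and 25.2, 22.8 and 23.2 CPM at 28 h. The 12 h libraries were lowest, close together and below every library of the other times. The log2 difference was -0.61 from 0 h (edgeR adjusted p 0.0425) and -1.15 from 28 h (adjusted p 2.27e-05), and the log2 contrast was -0.88 (SE 0.11, adjusted p 0.000349). CALD1 then overshot its start, with 28 h above 0 h by 0.54 on the log2 scale (edgeR adjusted p 0.0156). The difference from 0 h was close to the threshold, and leaving out any 1 of 8 libraries ended it, at an edgeR adjusted p of 0.0534 to 0.209 (these were all libraries of 12 and 28 h, replicate 4 of 0 h and replicate 2 of 44 h).

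TPM2, which encodes beta-tropomyosin, had 0 counts in all 3 libraries of 12 h (0 of 72261745), against 15, 8 and 3 counts at 0 h and 27, 36 and 18 counts at 28 h. Taking 3 counts over the group as the limit that a count of 0 allows, TPM2 was at least 8.50-fold lower than at 0 h and at least 27.5-fold lower than at 28 h. These bounds cover only the counting error at 12 h and take the counts of 0 and 28 h as exact. The contrast passed (edgeR adjusted p 0.00855) and so did the difference from 28 h (adjusted p 0.00199), while that from 0 h did not (adjusted p 0.0596), though it did with DESeq2 (0.0115), with no filter on low counts (0.00602) and without replicate 3 (0.0278) or replicate 4 (0.0345) of 0 h. Leaving out replicate 1 of 12 h ended the call of the contrast (edgeR adjusted p 0.0568), as did leaving out replicate 5 (0.0524).

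IGF1, the growth factor that signals through the IGF1 receptor, was scarce throughout. It had 0, 1 and 0 counts at 12 h, against 22, 14 and 12 counts at 0 h and 13, 13 and 22 counts at 28 h. The level was thus 47.1 times lower than at 0 h (95% counting interval 8.05 to 1897) and 48.9 times lower than at 28 h (8.36 to 1969). At 44 h it was again detected in every library, at 1.16, 0.969 and 0.365 CPM. IGF1 passed against 0 h and 28 h (edgeR adjusted p 0.0124 and 0.0161) and in the contrast (adjusted p 0.00874). Leaving out replicate 1 of 12 h ended the call of the contrast (edgeR adjusted p 0.0977), as did replicate 5 (0.0808), and both also ended the calls against 0 h and 28 h (0.0681 to 0.102). The call against 0 h ended when replicate 2 of 0 h was dropped (edgeR adjusted p 0.0936), and that against 28 h when its replicate 2 or 4 was (0.0611 and 0.0932). Its receptor gene IGF1R stood at 137 ± 6.29 CPM at 12 h, against 135 ± 4.31 CPM at 0 h and 142 ± 5.63 CPM at 28 h.

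Of 37 tested genes of the actin cytoskeleton and of SRF or YAP targets, CALD1 and TPM2 were called lower (0.0231% over all genes tested) and 0 were called higher, with a median log2 contrast of 0.01. This list, too, was chosen with earlier results of these data known, so its count cannot show enrichment, which was not tested. The other tropomyosin genes did not pass in the edgeR fit of all 12 libraries with the filter on low counts. TPM1 averaged 43.5 ± 3.39 CPM at 12 h, against 43.7 ± 2.99 CPM at 0 h and 42.4 ± 1.06 CPM at 28 h (log2 contrast 0.02, 95% interval -0.14 to 0.17). TPM4 stood at 1.06 ± 0.689 CPM at 12 h, against 2.38 ± 0.271 CPM at 0 h and 3.87 ± 0.703 CPM at 28 h, at an edgeR adjusted p of 0.24; DESeq2 called it (adjusted p 0.00937), as did edgeR with no filter on low counts (0.0439). TPM3 averaged 1.002 ± 0.421 CPM at 12 h, against 5.64 ± 1.33 CPM at 0 h and 2.18 ± 0.555 CPM at 28 h (edgeR adjusted p 0.77). The TPM3 contrast passed when edgeR was fitted to the 9 libraries of 0, 12 and 28 h alone (adjusted p 0.00608) and when replicate 1 of 44 h was left out (0.0135). WWTR1, the YAP partner TAZ, lies outside the naming rule and was chosen after its values were seen. It stood at 2.06, 1.43 and 3.10 CPM at 12 h, against 0.373, 0.428 and 0.0809 CPM at 0 h and 2.03, 1.54 and 1.04 CPM at 28 h. Its contrast missed the threshold in edgeR (adjusted p 0.0912). The contrast was called by DESeq2 (0.00827), by edgeR with no filter (0.00674) and by edgeR without replicate 3 of 12 h (0.0429). WWTR1 differed from 0 h (edgeR adjusted p 0.00372) but not from 28 h (edgeR 0.922, DESeq2 0.96).

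**Figure D3:**
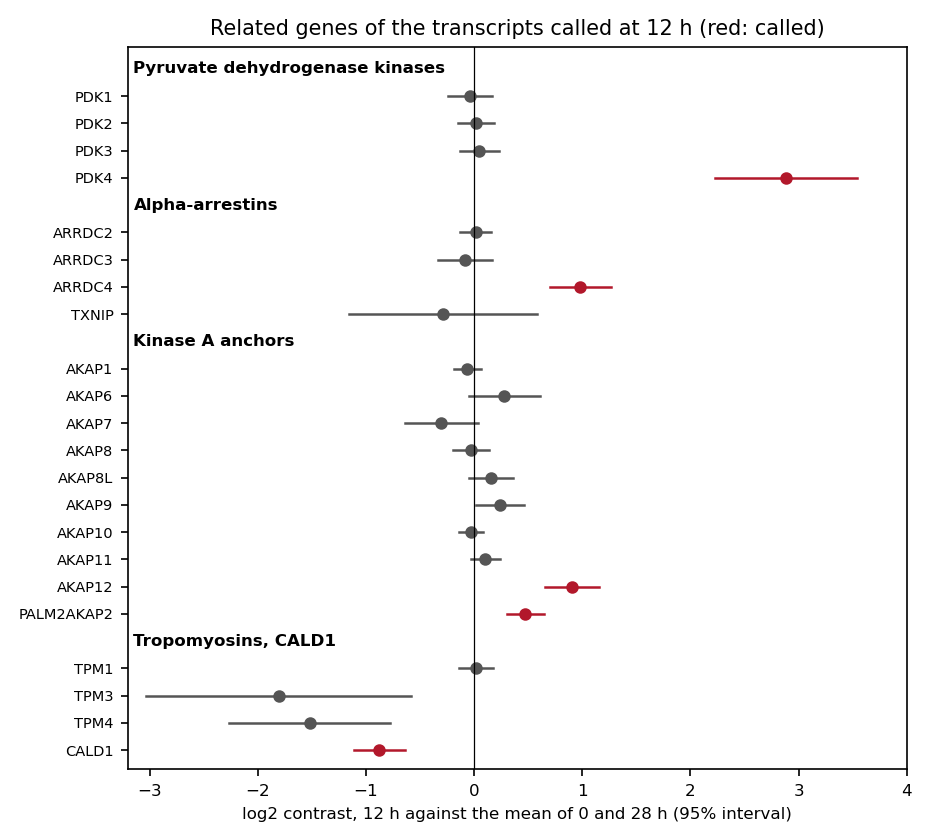
Log2 contrast of 12 h against the mean of 0 and 28 h with its 95% interval for the called genes of 4 families (red) and their tested relatives (grey); TPM2 is left out because it had 0 counts at 12 h. PDK4 at 2.88, ARRDC4 at 0.98 and AKAP12 at 0.91 stand clear of relatives whose intervals mostly include 0, whereas TPM3 and TPM4 lie below 0 with wide intervals.

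The other 7 higher genes were called over 0 h but not over 28 h, so the contrast reports for them a step up in the early hours. TRIM56 is a ubiquitin ligase of antiviral signalling. TRIM56 (ENSSSCG00000034347, chromosome 3, 8834143 to 8839415) stood at 4.30, 3.501 and 3.46 CPM at 12 h, against 0.290, 0.272 and 0 CPM at 0 h and 4.91, 4.50 and 5.05 CPM at 28 h. The 12 h libraries lay far above 0 h and just under 28 h. The fitted level was 19.5-fold that of 0 h (edgeR adjusted p 2.11e-06), the difference from 28 h did not pass (log2 -0.36, edgeR adjusted p 0.932), and 44 h averaged 0.809 ± 0.105 CPM.

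PEA15 encodes a small adaptor that holds the MAP kinase ERK in the cytoplasm. It stood at 7.45, 5.40 and 9.21 CPM at 12 h, against 1.24, 0.466 and 0.566 CPM at 0 h and 11.5, 13.6 and 12.6 CPM at 28 h. The 3 groups did not overlap and rose in the order of time up to 28 h, and 44 h averaged 4.97 ± 0.510 CPM. The level was 9.71-fold that of 0 h, and the log2 contrast of 1.25 (SE 0.20, edgeR adjusted p 0.00406) fell out of the calls when replicate 5 of 12 h was dropped (adjusted p 0.0617).

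CYP1B1, a cytochrome P450 that oxidises oestradiol and many foreign compounds, stood at 5.31, 4.37 and 5.26 CPM at 12 h, against 0.166, 0.389 and 0.809 CPM at 0 h and 7.07, 7.79 and 5.80 CPM at 28 h. It was 10.8-fold higher than at 0 h and, unlike TRIM56 and PEA15, kept a mean of 4.73 ± 1.54 CPM at 44 h. Its contrast (log2 1.48, SE 0.26, edgeR adjusted p 0.00908) fell out of the calls, at an adjusted p of 0.0502 to 0.0683, when replicate 3 of 0 h or replicate 1 or 5 of 12 h was dropped.

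KIF1C and PALM2AKAP2 were the called genes of higher level whose 12 h mean was significantly below 28 h. KIF1C, a kinesin motor that carries cargo along microtubules (ENSSSCG00000017900, chromosome 12, 51897763 to 51924437), stood at 30.5, 23.8 and 30.6 CPM at 12 h, against 3.56, 3.85 and 2.95 CPM at 0 h and 95.3, 85.1 and 78.6 CPM at 28 h. The level was 8.17-fold that of 0 h but 0.328 of that of 28 h (edgeR adjusted p 5.32e-08), and at 44 h it stood at 43.98 ± 6.76 CPM. Its log2 contrast of 0.71 (SE 0.11, edgeR adjusted p 0.00319) is positive only because the average is taken on the log scale: against the arithmetic mean of the CPM of 0 and 28 h it was -0.67, and limma-voom did not call it (adjusted p 0.0624). The other 11 higher genes were also above the arithmetic mean.

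PALM2AKAP2 joins the lipid-anchored paralemmin 2 to a kinase A anchor. It stood at 53.6, 52.0 and 44.6 CPM at 12 h, against 20.3, 19.4 and 16.3 CPM at 0 h and 72.8, 71.9 and 64.7 CPM at 28 h. The level was 2.68-fold that of 0 h and 0.718 of that of 28 h (edgeR adjusted p 4.95e-09 and 0.0281), so its log2 contrast of 0.47 (SE 0.08, edgeR adjusted p 0.00874) also describes a step on the way up. Dropping replicate 1 or 3 of 12 h ended that call (adjusted p 0.125 and 0.0893), and 44 h averaged 35.3 ± 1.29 CPM.

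Another higher gene has no symbol (ENSSSCG00000051614, chromosome 17, 33063722 to 33064859) and stood at 6.57, 3.03 and 7.54 CPM at 12 h, against 0.207, 0.0389 and 0.405 CPM at 0 h and 5.67, 4.38 and 5.47 CPM at 28 h, with a log2 contrast of 2.42 (SE 0.36, edgeR adjusted p 0.00406). For 11 of the 12 higher genes, KIF1C being the exception, the mean at 44 h was below that at 12 h, and for 6 of them it was below 50% of it.

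**Figure D4:**
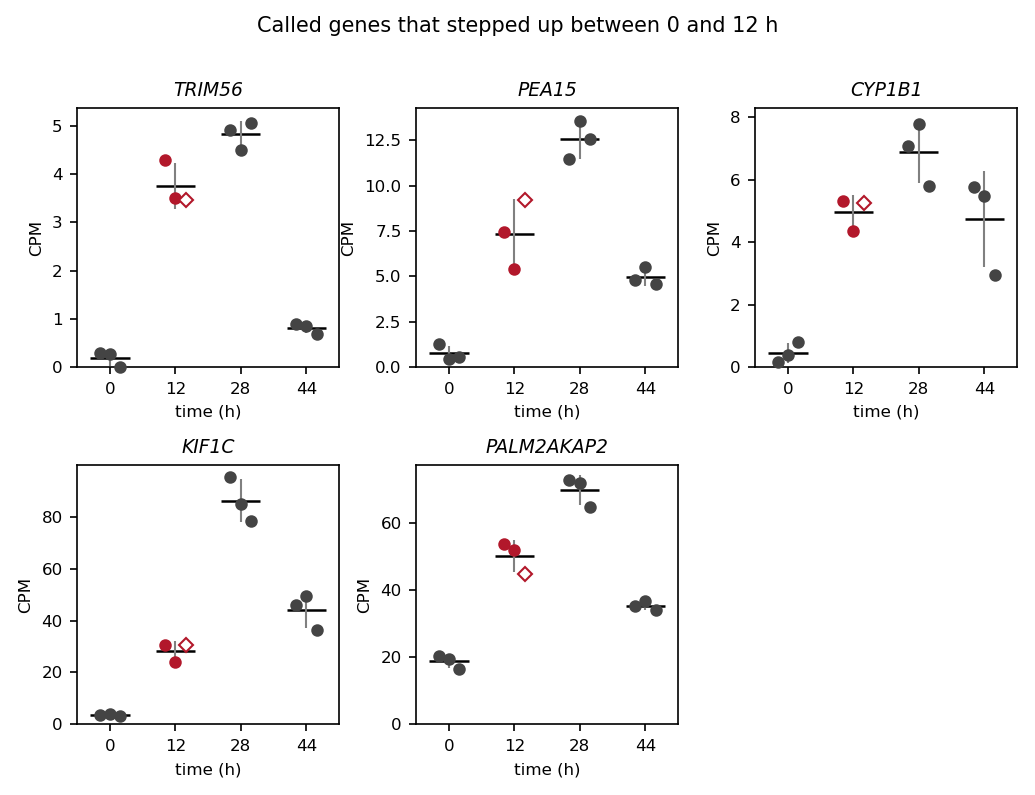
CPM of 5 called genes in each of the 12 libraries by time (h), drawn as in the plot of genes highest or lowest at 12 h. TRIM56, PEA15, CYP1B1, KIF1C and PALM2AKAP2 have 12 h means above 0 h and below 28 h.

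Counted per length, the called genes were of middling to low abundance at 12 h. By the authors' RPKM, ARRDC4 averaged 8.90 and TP53INP2 8.19 RPKM at 12 h, places 4415 and 4612 of the 12977 tested genes. PDK4 averaged 1.90 RPKM, place 8073, and CALD1 1.23 RPKM, place 8989. The remaining called genes lay between 5.29 RPKM (KIF1C) and 0 RPKM (TPM2).

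Genes that did not pass fill the lower end of the ranking by p. In MAD2L1, a protein of the spindle checkpoint, levels were 74.2, 79.0 and 72.8 CPM at 12 h, against 111, 87.9 and 93.3 CPM at 0 h and 94.6, 96.2 and 81.3 CPM at 28 h. The 12 h libraries lay below all 6 others, but the log2 contrast of -0.32 (SE 0.08) had an edgeR adjusted p of 0.273. DPPA2, a chromatin factor of germ cells and early embryos, stood at 7.33, 7.56 and 4.32 CPM at 12 h, against 10.4, 12.2 and 8.25 CPM at 0 h and 10.9, 9.73 and 10.4 CPM at 28 h (edgeR adjusted p 0.288). WWC2, a regulator of the Hippo pathway, averaged 5.13 ± 0.432 CPM at 12 h, against 6.71 ± 0.377 CPM at 0 h and 9.30 ± 1.55 CPM at 28 h (edgeR adjusted p 0.246), and DESeq2 called it at an adjusted p of 0.0492. UBE2E1, C1orf115, ORMDL1 and ODF2L, which the same rule named, had log2 contrasts of -0.28 to -0.52 and edgeR adjusted p of 0.387 to 0.448. Over all genes tested, 122 (0.94%) had every 12 h library above the 6 others and 148 (1.14%) had every one below. Such separation was not tested and does not by itself mark a gene as changed.

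The lists of genes that oocytes are known for had median contrasts near 0 and held 0 genes called in the contrast. With 0.116% called over all genes tested, lists of this size can hold 0 by that rate alone. BMP15, which the oocyte secretes to act on the follicle cells around it, averaged 4346 ± 373 CPM at 12 h, against 5003 ± 420.1 CPM at 0 h and 4001 ± 169.9 CPM at 28 h, and its log2 contrast was -0.04 (95% interval -0.17 to 0.08). The zona pellucida genes ZP2, ZP3 and ZP4 had log2 contrasts of -0.02, 0.17 and 0.10. Of 24 oocyte growth and maternal-effect genes 0 were called in the contrast, with a median log2 contrast of -0.00. Against 28 h, 2 of the 24 were called (0.262% over all genes tested). Of 43 meiotic cell cycle genes 0 were called, and CCNB1, the cyclin of the kinase that drives entry into meiosis, averaged 542 ± 30.1 CPM at 12 h, against 570 ± 13.7 CPM at 0 h and 550 ± 15.5 CPM at 28 h (log2 contrast -0.05, 95% interval -0.15 to 0.06).

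Likewise, the median contrasts of the large housekeeping groups were near 0. The 58 cytosolic ribosomal protein genes had a median log2 difference of -0.25 from 0 h and 0.24 from 28 h, which left a median contrast of -0.00, the same as all genes. The 67 nuclear-encoded respiratory chain genes had medians of -0.22 and 0.14, and the 21 histone genes -0.18 and 0.21. None of these genes was called in the contrast or against 0 h, where the shares over all genes tested were 0.116% and 0.208%. Against 28 h, 4 ribosomal protein genes were called (0.262% over all genes tested). Single members of these families can share reads with near-identical copies.

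The 13 mitochondrially encoded genes differed widely between the libraries of 12 h. Their summed level was 7749, 6515 and 13677 CPM in replicates 1, 3 and 5 of 12 h, against 10276, 10159 and 11069 CPM at 0 h and 8113, 8487 and 4530 CPM at 28 h. Every library of 28 h lay below those of 0 h, as did those of 44 h (5668 to 8119 CPM) and replicates 1 and 3 of 12 h, whereas replicate 5 of 12 h was above every other library. Their median log2 contrast was 0.08 with 0 called (0 at an unadjusted p under 0.05 in edgeR, and 0 by DESeq2 and limma-voom), and -0.16 without replicate 5. NDUFAB1, the mitochondrial acyl carrier protein, followed the same library, with 32.6, 35.1 and 104.8 CPM at 12 h, against 36.0, 40.3 and 40.9 CPM at 0 h and 17.0, 19.4 and 24.6 CPM at 28 h, and was not called (log2 contrast 1.03, edgeR adjusted p 0.787; 0.26 without replicate 5). The part of this library in other results was not tested beyond leaving it out: 11 of the 15 called genes were called without it.

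Of 25 gene lists in all, 6 held a called gene, and PDK4 also stood in the list of 13 glucocorticoid-responsive genes, as its 1 called member. The other 19 lists held 739 tested genes, of which edgeR called 0 (0.116% over all genes tested), with 33 at an unadjusted p under 0.05 (6.28% over all genes tested) and 0 called by DESeq2 or limma-voom. They included 31 genes of insulin signalling and FOXO factors, 23 of fatty acid oxidation, 31 immediate early genes, 23 stress response genes, 23 genes that respond to low oxygen, 17 clock genes, 38 of poly(A) control and 202 solute carriers. FOXO1, a factor known to drive PDK4 in other tissues, averaged 99.9 ± 4.63 CPM at 12 h, against 92.3 ± 8.49 CPM at 0 h and 99.2 ± 6.05 CPM at 28 h. Whether FOXO1 acted on PDK4 here was not tested. The markers of cumulus and granulosa cells (17 tested), theca and stroma (10) and endothelium and blood (9) likewise held 0 called genes. As the lists were chosen with earlier results of these data known, their counts beside the shares cannot show enrichment.

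**Figure D5:**
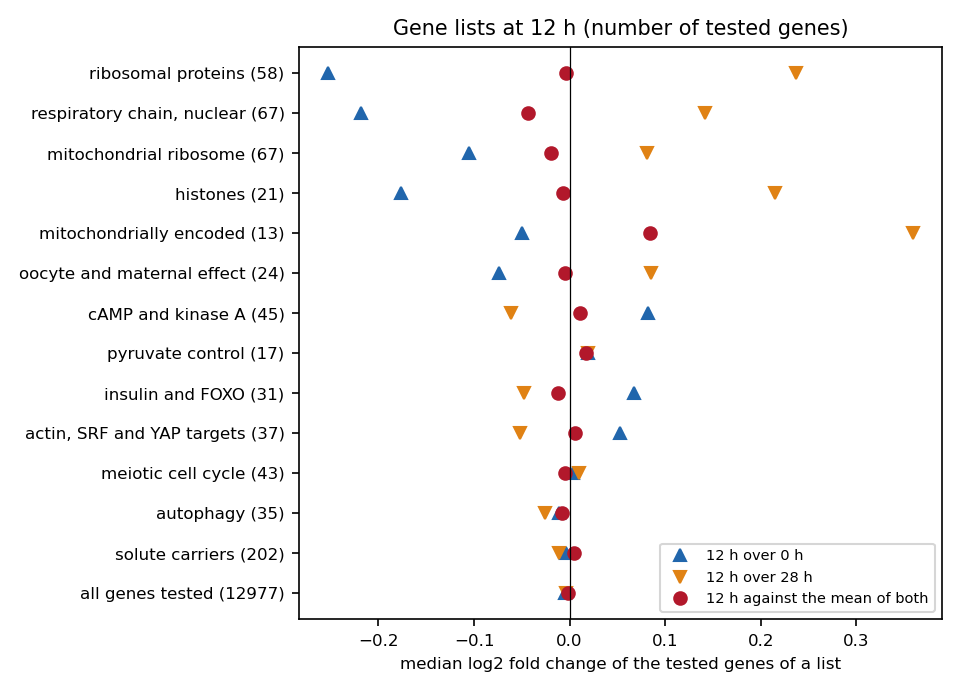
Median log2 fold change of the tested genes of 13 lists and of all genes, for 12 h over 0 h (blue), 12 h over 28 h (orange) and 12 h against the mean of both (red). Ribosomal, respiratory chain and histone genes lie below 0 against 0 h and above 0 against 28 h, and their red points lie near 0.

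Depth limits the contrast for scarce genes. The median SE of the log2 contrast was 0.0804 for the 7883 genes with at least 10 CPM and 0.274 for the 5094 below it, so a brief change of a scarce transcript had to be large to pass.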

How the data were processed

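RNA of oocytes was measured by RNA-seq at 0, 12, 28 and 44 h; per the labels' protocols, libraries were stranded total RNA libraries sequenced in pairs. The submitters' processing notes name the build Sscrofa11.1 and DESeq2; aligner, counting by strand and the handling of reads shared by several genes are not given in the sources used here, so overlapping and near-identical genes are uncertain. Per the file headers, the deposited table holds each library's total counts per gene, which were the input here, and the authors' RPKM values, used only to rank levels per length. The authors' own fold changes were not used. The titles' time and replicate number tied each column to its sample, 0 columns were left unmapped, and 0 of 66 library pairs were identical.

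Genes were filtered with filterByExpr (minimum count 10), given TMM factors of 0.979 to 1.02, and modelled with a mean for each time and robust estimation in edgeR 4.0.16 (R 4.3.3), leaving 8 residual degrees of freedom; the biological coefficient of variation was 10.6%. The contrast and each pairwise difference were tested with edgeR's quasi-likelihood test and Benjamini-Hochberg adjustment over all 12977 genes, threshold 0.05. Intervals are 95%; those of counts cover counting error only. The scripts were tested on simulated data.

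The comparison, the gene lists and the genes were chosen with earlier results of these data known. Named genes were the called genes with a symbol (up to 15 in each direction), in a direction with under 10 calls the genes with the smallest p and at least 5 CPM up to 10, up to 2 called members of each list in each direction, and a panel of 12. Alternatives were RLE and upper-quartile scaling, library totals alone, no mitochondrially encoded genes, no filter, 1 CPM in 3 libraries, no robust estimation, the 9 libraries alone, DESeq2 1.42.0, limma-voom (limma 3.58.1), a block for replicate number and dropping 1 library at a time; the arithmetic mean was added after seeing the data. The main model did not pair samples by replicate number, and the labels do not say whether a shared number marks a pair. The values of 1 called gene are not reported here.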

Additional observations from a re-analysis of the deposited data

How the results depend on the processing

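RLE, upper-quartile and total-count scaling and the removal of mitochondrially encoded genes each gave the same 15 calls. Over 343 repeats of the contrast for the 15 called genes, 312 stayed past the threshold, 31 did not and 0 changed direction; the arithmetic mean, chosen after seeing the data, turned KIF1C to -0.67. Higher calls and brief highs stayed within 1.5 times of the main count outside the leave-one-out and block fits. The lower calls, 3 in the main analysis, were 5 with DESeq2 (which added TPM4 and WWC2), 6 with no filter (which added TPM4, MAD2L1 and DPPA2) and 1 with the filter of 1 CPM in 3 libraries, where TPM2 and IGF1 are not tested. The brief lows, 2 in the main analysis, were 1 with that filter, 1 with limma-voom, and 3 with DESeq2 or with no filter, which added TPM2. DESeq2 called 20 genes in all and limma-voom 14. Leaving out 1 library gave 13 to 18 calls, 11 to 14 higher, 1 to 4 lower, 1 to 3 brief highs and 0 to 3 brief lows. Without 12 h replicate 5, PDK4 was the 1 brief high and there were 0 brief lows. The cause of these shifts was not tested. The list of mitochondrially encoded genes has no value once those genes are removed.

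A replicate block gave 0 called genes, 0 higher and 0 lower, with 0 brief highs and 0 brief lows. In that edgeR fit, 336 genes had an unadjusted p under 0.05. The block leaves fewer than the 8 residual degrees of freedom of the main model. Replicate number 5 occurs only at 12 h, so that library is fitted exactly and adds nothing to the contrast. The log2 contrast of PDK4 was 1.84 with the block, against 2.88 without it. The 0 calls thus cannot show whether the calls depend on pairing. Same-numbered libraries deviated together weakly (10 pairs, correlations -0.006 to 0.127, 2 over 0.1), against -0.114 to 0.0668 for 44 other pairs, and 12 h shares 1 number, 3, with 0 and 28 h. A shared number is all that the labels give, so whether such samples are paired is not known.

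Totals of about equal size leave scarce genes least certain: TPM2 and IGF1 rest on few counts, and their fits depend on the prior count.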

Other observations

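ZEB2 and MAP1B, which were above 0 h and below 28 h at 12 h in separate tests, did not pass the contrast. ZEB2, a zinc finger repressor, stood at 9.43, 7.74 and 5.66 CPM at 12 h, against 0.705, 0.777 and 0.485 CPM at 0 h and 35.1, 26.6 and 29.7 CPM at 28 h. Its log2 contrast was 0.76 (edgeR adjusted p 0.387), and against the arithmetic mean of the 2 neighbours it was -1.03. MAP1B, a microtubule-associated protein, averaged 165 ± 10.2 CPM at 12 h, against 79.9 ± 8.86 CPM at 0 h and 255 ± 8.14 CPM at 28 h. Its log2 contrast was 0.21 (edgeR adjusted p 0.67). RSPO2, a secreted activator of Wnt signalling, had already reached its later level at 12 h, with 162, 167 and 172 CPM, against 203, 202 and 218 CPM at 0 h and 173, 165 and 167 CPM at 28 h. It differed from 0 h (edgeR adjusted p 0.0199) and had a log2 difference of -0.01 from 28 h. Leaving out replicate 2 or 4 of 0 h, or replicate 1 or 3 of 12 h, ended the difference from 0 h, at an edgeR adjusted p of 0.0626, 0.161, 0.11 and 0.0689 in that order.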
